A study of Mus musculus with 25 samples.

Results

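Hepatocytes of mice that received an IL-6 plasmid were set directly against hepatocytes of mice fed DDC, to show which gene programmes went with the cytokine and which with the diet. Members were chosen by their labels alone: the 3 IL-6 libraries and the 2 DDC libraries, which are 5 of 13 hepatocyte libraries and of 25 libraries in the series. All genes of the count table were considered, and 14339 of 18668 passed a filter on low counts and were tested. IL-6 hepatocytes came from wild-type mice, labelled C57BL/6J 129SV as all mice here, 1 week after hydrodynamic tail vein injection of a plasmid encoding IL-6. That injection forces a large volume into the blood and drives plasmid DNA into liver cells, a way to have the liver itself make the cytokine. DDC hepatocytes came from Stat3_floxed mice that had received AAV-TBG-GFP, a viral vector with a hepatocyte promoter (TBG), 2 weeks before collection and had eaten DDC for 1 week. Genotype, virus and injection therefore differed together with the treatment, and their shares in a difference cannot be told apart from it. Wild-type hepatocytes given a GFP plasmid by the same injection for 1 week (n = 2) are given beside both groups. DDC differed from them too in genotype, virus and injection, so a DDC over GFP plasmid value cannot be credited to the diet alone. A further pair carried AAV-TBG-Cre, which is meant to delete floxed Stat3 where the TBG promoter is active: IL-6 STAT3KO (n = 3) and DDC STAT3KO (n = 3), both in Stat3_floxed mice with the same virus for 2 weeks and the plasmid or diet for 1 week. No label states that replicates came from separate animals, so p-values measure only how far these libraries scatter, and that scatter may be technical.

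IL-6 binds its receptor and the shared subunit gp130, which activates JAK kinases and the transcription factor STAT3. In hepatocytes this pathway is best known for the acute phase response, in which the liver secretes fibrinogen, serum amyloid A, haptoglobin and other plasma proteins, and for its feedback inhibitor SOCS3. DDC (3,5-diethoxycarbonyl-1,4-dihydrocollidine) blocks the last step of haem synthesis, lets porphyrin accumulate and injures bile ducts. It is known in mouse liver for keratin-rich Mallory-Denk bodies, a ductular reaction and the antioxidant programme of NRF2.

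The 5 libraries held 16517750 to 18428988 counts each. Hepatocyte markers were abundant in all of them, with a summed level of 191700, 112200 and 74460 CPM (counts scaled to library size) in IL-6 and 113800 and 95890 CPM in DDC. The library labelled IL-6 replicate 3 stood apart. It held 7795 EGFP counts, where IL-6 replicates 1 and 2 held 117 and 93, although no virus and no GFP plasmid is given for that group. The DDC libraries, which received a GFP virus, held 22357 and 27571 EGFP counts, and the GFP plasmid libraries 34 and 35. Albumin took 0.557% of the counts in IL-6 replicate 3, 6.45% and 2.99% in the other IL-6 libraries, and 8.08% and 7.67% in the DDC libraries. Results are therefore also given without that library for genes named below that lost a call, and for some of the lists. Across genes, log2 CPM correlated at r = 0.983 between IL-6 replicates 1 and 2, at 0.948 and 0.958 between these and replicate 3, at 0.97 between the DDC libraries, and at 0.89 to 0.904 between the groups. Genes are not independent replicates, so no p-value belongs to these values.

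Markers of other cell types differed between the groups. Over all genes tested, 6.03% were called higher and 5.55% lower in IL-6 than in DDC. Cholangiocyte markers had the largest sums in IL-6, at 10830, 6956 and 2269 CPM in IL-6, against 595.9 and 671.5 CPM in DDC and 63.25 and 52.83 CPM with the GFP plasmid. Most of that was Spp1, and of 8 tested 1 was called higher (Sox9) and 1 lower (Cldn4). Krt7 stood at 0 to 0.123 CPM and Epcam at 0.579 to 1.82 CPM in the 5 libraries. Of 14 Kupffer cell markers, 2 were called lower in IL-6 than in DDC, and their summed level was 288.7 to 394.8 CPM in the IL-6 libraries and 752.8 to 933.4 CPM in the DDC libraries. Stellate cell markers had 2 of 12 called lower, at a sum of 88.8 to 162.4 CPM in IL-6 and 302.2 to 481.1 CPM in DDC. Neutrophil markers had 3 of 7 called higher, at a sum of 2.12 to 32.9 CPM in IL-6 and 1.38 to 2.50 CPM in DDC, where Mpo, Ngp and Camp were at 0. The 3 called were Mpo, Ngp and Elane, and all were higher in IL-6 replicates 1 and 2 than in replicate 3. S100a8 overlapped between the groups, and so did Csf3r, at 1.18, 0.74 and 0.25 CPM in IL-6 and 1.01 and 1.38 CPM in DDC. General macrophage markers had 1 of 13 called lower, and 10 of 13 lay below both DDC libraries in every IL-6 library, where 25.6% of all genes did, with a median log2 fold change of -1.29. Their sums overlapped, at 177.9 to 302.6 CPM in IL-6 and 211.3 to 314.2 CPM in DDC, and were mostly Cd14, which went the other way, at 152, 236 and 126 CPM in IL-6, against 75.2 and 66.4 CPM in DDC. Dendritic cell markers had 2 of 5 called lower, at sums of 1.5, 1.42 and 1.06 CPM in IL-6 and 4.88 and 6.86 CPM in DDC. Of 13 sinusoidal endothelial markers, 0 were called by edgeR or DESeq2, and 2 were lower at an unadjusted p under 0.05. Still, 10 of 13 lay below both DDC libraries in every IL-6 library and 0 above, with a median of -0.96. Their sums were 274.9, 238.1 and 81.5 CPM in IL-6 and 403.4 and 335.1 CPM in DDC. Mitochondrial genes took 2.05% to 2.76% of the counts in IL-6 and 5.21% to 5.48% in DDC. The part of these differences in the results below was not tested, and in bulk samples fewer cells of a type and less RNA per cell cannot be told apart.

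In all, 865 genes were called higher and 796 lower in IL-6 than in DDC by edgeR, which is 6.03% and 5.55% of the genes tested, at a Benjamini-Hochberg adjusted p under 0.05. A value given as a number ± its standard error with an adjusted p is a log2 fold change of IL-6 over DDC from edgeR unless another pair is named. The median over all genes tested was 0.0032 on that scale. Leaving out IL-6 replicate 3 gave 895 higher and 760 lower genes of 14230 tested. Of these, 715 and 602 were among the genes called with all libraries, which is 82.7% and 75.6% of those. Leaving out either DDC library leaves that group with 1 library, assumed to vary like the other groups, and gave as few as 246 higher and 362 lower genes. Of 167 called genes named in the text or by its rule, 104 kept their call with each of the 5 libraries left out in turn, and any of the others named below is marked there.

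**Figure D1:**
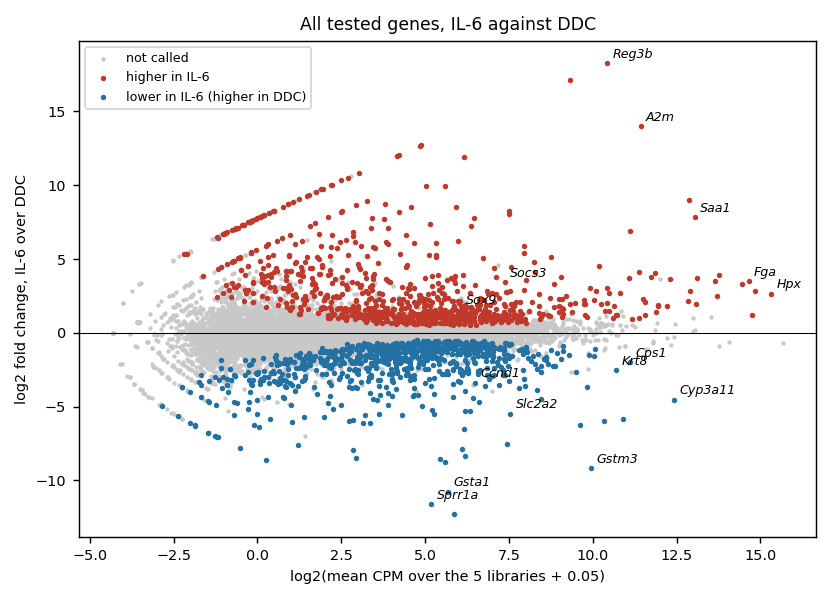
Log2 fold change of IL-6 over DDC (y axis) against log2 of the mean CPM over the 5 libraries plus 0.05 (x axis) for all 14339 genes tested. Red points are the 865 genes called higher in IL-6 and blue points the 796 called lower. Of the labelled genes, Reg3b and A2m lie highest, and the acute phase genes Saa1, Fga and Hpx lie lower, above 0 at the right. Gstm3 and Gsta1 lie near the bottom, and Cyp3a11 between them and 0.

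Within IL-6 signalling, the feedback genes and Stat3 itself were higher in IL-6, while Il6ra and Il6st, which encode the IL-6 receptor, did not pass the test. Il6, the cytokine itself, had 4.89, 3.21 and 351 CPM in IL-6 libraries, against 0 and 0.0446 CPM in DDC libraries. Nearly all of its reads in the IL-6 group came from replicate 3, the library with EGFP, and the DDC libraries held 1 count together. The ratio of the groups came to 5276, with a 95% counting interval of 947 to 208416 that covers counting error only (adjusted p = 0.0283), and the call was lost without DDC replicate 1 or DDC replicate 2 (adjusted p = 0.162 or 0.186). Il6ra, the IL-6 binding chain, was at 0.12 ± 0.47, adjusted p = 0.904. Il6st, the gene of gp130, was at -0.01 ± 0.22, adjusted p = 0.989. Stat3 (ENSMUSG00000004040) had 339.7, 351 and 424 CPM in IL-6 libraries, against 150.1 and 112 CPM in DDC libraries, and 109 and 98.9 CPM in the GFP plasmid libraries. All IL-6 libraries lay above both DDC libraries (log2 fold change 1.504 ± 0.24, adjusted p = 0.00194). By its labels the DDC group carried floxed Stat3 and no Cre.

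The signalling list of IL-6 and STAT3 held 30 genes, with 9 higher, 1 lower and a median of 0.07. Socs3, the feedback inhibitor, had 270.2, 292 and 216 CPM in IL-6 libraries, against 32.6 and 15.1 CPM in DDC libraries, and 11.7 and 11.97 CPM in the GFP plasmid libraries. The IL-6 libraries did not overlap with the DDC libraries (log2 fold change 3.44 ± 0.38, adjusted p = 0.000203). Socs1, another inhibitor of JAK kinases, was close to undetected in DDC, with 24.6, 29.9 and 15.8 CPM in IL-6 libraries, against 0.424 and 0.223 CPM in DDC libraries (6.17 ± 0.65, adjusted p = 0.0001495). Ptpn2, a phosphatase of JAK and STAT proteins, was higher by a smaller amount (1.40 ± 0.21, adjusted p = 0.001401). Osmr, the receptor chain for oncostatin M, a related cytokine, had 54.00, 57.1 and 71.6 CPM in IL-6 libraries, against 12.6 and 9.71 CPM in DDC libraries (2.45 ± 0.46, adjusted p = 0.00508), and it lost its call without DDC replicate 2 (adjusted p = 0.0759). Osmr rose over the GFP plasmid in both groups, by 5.62 ± 0.57 in IL-6 and by 3.17 ± 0.55 in DDC. Here and below, both such values rest on the same GFP plasmid libraries. The transcription factor Cebpb, a regulator of acute phase genes, had 31.6, 80.2 and 13.9 CPM in IL-6 libraries, against 6.204 and 8.02 CPM in DDC libraries. Its IL-6 libraries were widely spread (2.56 ± 0.65, adjusted p = 0.0253), the GFP plasmid libraries held 29.7 and 72.03 CPM, and the call was lost without IL-6 replicate 2, DDC replicate 1 or DDC replicate 2 (adjusted p = 0.0723, 0.162 or 0.136). Another gene shares 20.7% of its exon bases, so its reads are uncertain.

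Positive acute phase plasma proteins had the largest share of members called higher among the 38 lists. Of 31 tested members, 26 were higher and 0 lower, with a median of 3.32, and in 29 of 31 every IL-6 library lay above both DDC libraries, against 24% of all genes. Without IL-6 replicate 3, 27 were higher and 0 lower. Against the GFP plasmid, the list had 27 higher and 0 lower members in IL-6, where 13.7% and 12.2% of all genes were called higher and lower. It had 9 higher and 3 lower in DDC, where these shares were 10.4% and 8.29%, with a median of 3.80 in IL-6 and 0.48 in DDC. Serpina3n, a protease inhibitor, had 5651, 6021 and 6123 CPM in IL-6 libraries, against 341 and 384 CPM in DDC libraries. Its libraries agreed closely within each group (log2 fold change 4.03 ± 0.29, adjusted p = 2.00e-05), and DDC did not differ from the GFP plasmid past the threshold (-0.36 ± 0.27, adjusted p = 0.368). Itih3, which stabilises hyaluronan matrix, had 16134, 13750.2 and 11737 CPM in IL-6 libraries, against 1161 and 956 CPM in DDC libraries (3.71 ± 0.34, adjusted p = 7.67e-05). Serpina10, an inhibitor of clotting factor Xa, was higher by 2.85 ± 0.24 (adjusted p = 4.95e-05).

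The serum amyloid genes, which encode lipoprotein-bound acute phase proteins, stood more than 100-fold apart. Saa1 had 11912, 13905 and 16146 CPM in IL-6 libraries, against 99.2 and 23.04 CPM in DDC libraries. The DDC libraries spanned the GFP plasmid level of 31.9 and 72.03 CPM, while all IL-6 libraries were far above either (log2 fold change 7.84 ± 0.93, adjusted p = 0.000309). Saa2 had 10104, 12319.7 and 15103 CPM in IL-6 libraries, against 41.8 and 6.86 CPM in DDC libraries (9.01 ± 1.72, adjusted p = 0.00561), and its call was lost without DDC replicate 2 (adjusted p = 0.06597). Saa1 and Saa2 are near-identical copies and reads may be split between them. The orosomucoid gene Orm2 had 4033, 3465 and 3501 CPM in IL-6 libraries, against 40.4 and 22.3 CPM in DDC libraries (6.87 ± 1.01, adjusted p = 0.00113), with the same reservation for its paralogs. A2m, the broad protease inhibitor alpha-2-macroglobulin, had 787, 381 and 12595 CPM in IL-6 libraries, against 0.424 and 0.134 CPM in DDC libraries. Replicate 3 was far above the other IL-6 libraries, and each of the 3 was far above both DDC libraries (14.01 ± 1.98, adjusted p = 0.0009298, and 11.05 without replicate 3).

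Some acute phase genes were above the GFP plasmid in both groups and higher in IL-6 than in DDC. Hp, haptoglobin, which binds free haemoglobin, had 44068, 44321 and 45309 CPM in IL-6 libraries, against 6617 and 5648 CPM in DDC libraries, and 1946 and 1916 CPM with the GFP plasmid. It was higher in IL-6 than in DDC by 2.86 ± 0.39 (adjusted p = 0.000737) and rose over the GFP plasmid by 4.53 ± 0.43 in IL-6 and by 1.67 ± 0.39 in DDC. Hpx, haemopexin, which binds free haem, had 62155, 61826 and 59362 CPM in IL-6 libraries, against 11851 and 7774 CPM in DDC libraries, and 3327 and 3406 CPM with the GFP plasmid. The order IL-6, DDC, GFP plasmid held in every library (2.64 ± 0.34, adjusted p = 0.0005198 for IL-6 over DDC, and 1.54 ± 0.34, adjusted p = 0.0112 for DDC over the GFP plasmid). Lcn2, lipocalin 2, which sequesters bacterial iron carriers, had 3951, 3042 and 3241 CPM in IL-6 libraries, against 253 and 268 CPM in DDC libraries, and 1.79 and 13.97 CPM with the GFP plasmid. It was higher in IL-6 than in DDC (3.71 ± 0.83, adjusted p = 0.0135), a call lost without DDC replicate 1 or DDC replicate 2 (adjusted p = 0.108 or 0.116).

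Negative acute phase proteins, plasma proteins that fall during inflammation, had 1 of 15 higher and 1 lower by edgeR, with a median of -0.34. DESeq2 called 2 higher and 4 lower, and 3 were higher and 5 lower at an unadjusted edgeR p under 0.05. Against the GFP plasmid, 1 was higher and 8 were lower in IL-6, where 13.7% and 12.2% of all genes were. In DDC 0 were higher and 4 lower, where these shares were 10.4% and 8.29%. Serpina6, corticosteroid-binding globulin, had 13.5, 15.6 and 13.04 CPM in IL-6 libraries, against 181 and 94.2 CPM in DDC libraries, and 341 and 308 CPM with the GFP plasmid (IL-6 over DDC -3.29 ± 0.45, adjusted p = 0.000792). Trf, transferrin, was called higher (1.48 ± 0.42, adjusted p = 0.0413), but 63.5% of its exon bases are shared with another annotated gene and the call was lost without IL-6 replicate 1, IL-6 replicate 2, DDC replicate 1 or DDC replicate 2 (adjusted p = 0.123, 0.105, 0.116 or 0.282). Alb, albumin, did not pass, with 84156, 33887 and 6388 CPM in IL-6 libraries, against 73203 and 63026 CPM in DDC libraries (-0.72 ± 0.70, adjusted p = 0.5596). Its IL-6 libraries were more than 10-fold apart, on either side of the DDC libraries.

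Coagulation and complement genes were also called higher more often than lower. Of 33 coagulation and fibrinolysis genes, 14 were higher and 1 lower, with a median of 0.60, and the counts were the same without IL-6 replicate 3. The 3 fibrinogen chains were much more abundant in IL-6: Fga had 43456, 37418 and 40128 CPM in IL-6 libraries, against 4855 and 2352 CPM in DDC libraries, which did not overlap (3.48 ± 0.41, adjusted p = 0.000301). Fgb (3.32 ± 0.34) and Fgg (3.49 ± 0.40) moved by a like amount, and all these genes also stand on the acute phase list. DDC left Fga near the GFP plasmid level of 4576 and 3777 CPM (DDC over GFP plasmid -0.21 ± 0.38, adjusted p = 0.727). Cpb2, an inhibitor of fibrin breakdown, had 2223, 2019.5 and 2097 CPM in IL-6 libraries, against 296 and 226 CPM in DDC libraries (3.02 ± 0.32, adjusted p = 0.000147). The exception was Klkb1, plasma prekallikrein, with 23.8, 10.1 and 15.2 CPM in IL-6 libraries, against 115 and 85.4 CPM in DDC libraries (-2.62 ± 0.32, adjusted p = 0.000375), in which 43.2% of exon bases are shared with a predicted gene.

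Of 30 complement genes, 11 were higher and 1 lower, with a median of 0.42. Serping1, the C1 inhibitor, had 3112, 2653 and 2368 CPM in IL-6 libraries, against 442 and 396 CPM in DDC libraries, and 698 and 629.8 CPM with the GFP plasmid. The DDC libraries lay below the GFP plasmid libraries, though that difference did not pass (-0.66 ± 0.24, adjusted p = 0.0749), and the IL-6 libraries lay above both groups (IL-6 over DDC 2.69 ± 0.25, adjusted p = 7.67e-05). C4bp (1.85 ± 0.28) and Vtn (1.84 ± 0.24), both regulators that restrain complement on host surfaces or in plasma, were higher with adjusted p of 0.00152 or less. Mbl2, a lectin that starts the complement cascade, was lower (-1.44 ± 0.38, adjusted p = 0.0278), but lost that call without IL-6 replicate 1, IL-6 replicate 3, DDC replicate 1 or DDC replicate 2 (adjusted p = 0.0861, 0.0722, 0.128 or 0.109).

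**Figure D2:**
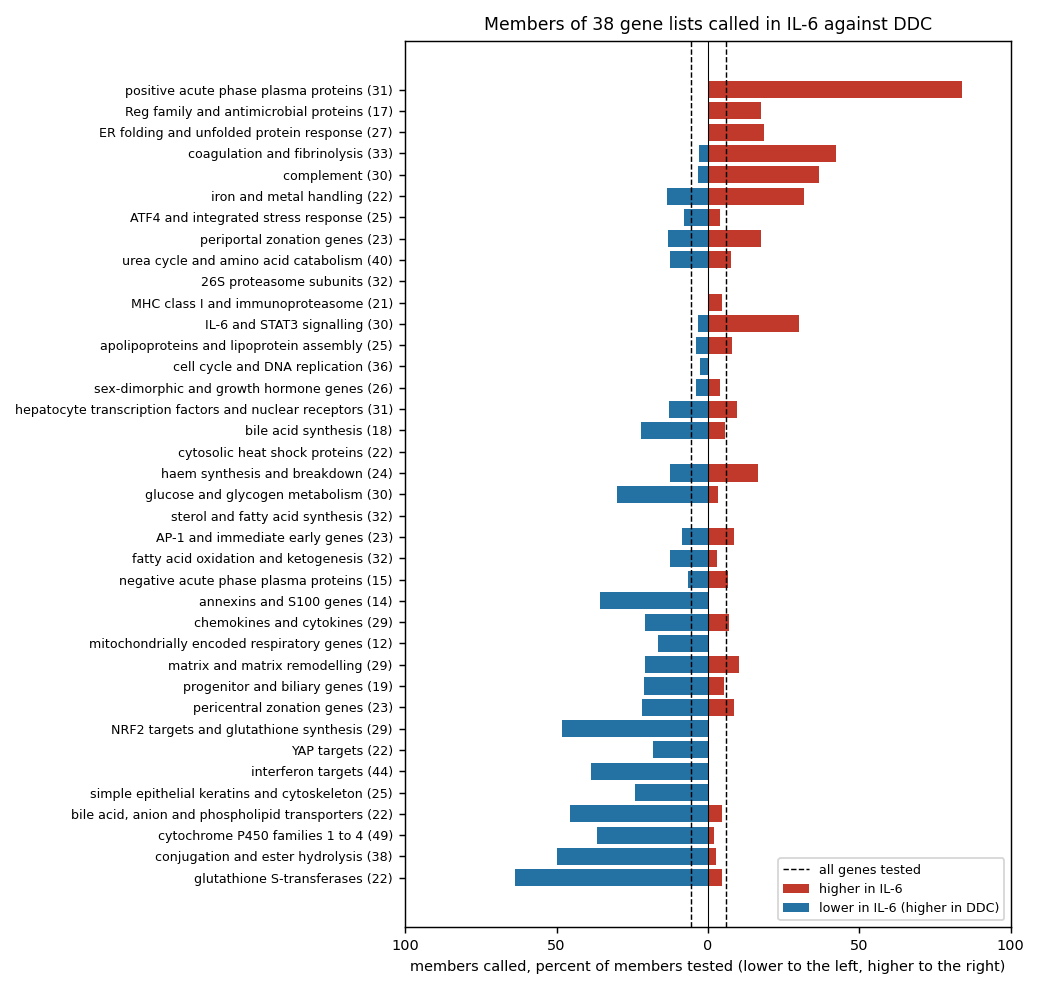
Share of tested members called higher (red, to the right) or lower (blue, to the left) in IL-6 than in DDC for 38 gene lists, with the number of members tested in brackets and lists ordered by median. Dashed lines mark the shares over all genes tested, 6.03% higher and 5.55% lower. Acute phase proteins stand at the top with 26 of 31 higher, and glutathione S-transferases at the bottom with 14 of 22 lower.

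Genes of protein folding in the endoplasmic reticulum, where secreted proteins are made, had 5 of 27 members higher and 0 lower, with a median of 0.62. Xbp1, a transcription factor that expands the secretory pathway, had 756, 717 and 689.7 CPM in IL-6 libraries, against 229 and 171 CPM in DDC libraries, and 289 and 303 CPM with the GFP plasmid (IL-6 over DDC 1.85 ± 0.25, adjusted p = 0.000737). The chaperones Dnajb11 (1.16 ± 0.22, adjusted p = 0.00545) and Pdia4 (1.19 ± 0.28, adjusted p = 0.0187) were higher by smaller amounts, calls lost without DDC replicate 2 (adjusted p = 0.0882) for Dnajb11 and without DDC replicate 2 (adjusted p = 0.212) for Pdia4. Calr, calreticulin, was at the threshold (0.99 ± 0.26, adjusted p = 0.0279) and lost its call without IL-6 replicate 1, IL-6 replicate 3, DDC replicate 1 or DDC replicate 2 (adjusted p = 0.0547, 0.0632, 0.0694 or 0.269). In DDC against the GFP plasmid, 0 of the 27 genes were called in either direction by edgeR or DESeq2, and 2 were lower at an unadjusted p under 0.05.

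A set of genes was clearly expressed in IL-6 and close to silent in DDC and with the GFP plasmid. Reg3b, an antimicrobial lectin known from gut and pancreas, had 1964, 1695 and 3219 CPM in IL-6 libraries, against 0 and 0 CPM in DDC libraries. With no count in DDC and 1 with the GFP plasmid, it was at least 31862-fold higher than in DDC, against a floor of 3 counts over the group. Its paralog Reg3g had 754, 775 and 1693 CPM in IL-6 libraries, against 0 and 0 CPM in DDC libraries (at least 15098-fold higher), and reads may be split between these close copies. Of 17 Reg and antimicrobial genes, 3 were higher and 0 lower with all libraries, and 5 higher of 15 without IL-6 replicate 3.

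Other genes of this kind had varied known roles. Gpc3, a heparan sulphate proteoglycan of fetal liver, had 152, 89.2 and 62.6 CPM in IL-6 libraries, against 0.159 and 0.356 CPM in DDC libraries (8.54 ± 0.79, adjusted p = 7.67e-05). Acpp, an acid phosphatase, had 181, 141 and 88.8 CPM in IL-6 libraries, against 0.955 and 0.847 CPM in DDC libraries (7.24 ± 0.67, adjusted p = 0.000114), and no count with the GFP plasmid. Spink1, a trypsin inhibitor of the pancreas, had 176, 167 and 95.2 CPM in IL-6 libraries, against 0.265 and 1.02 CPM in DDC libraries (7.77 ± 0.89, adjusted p = 0.000291). In each of these, every IL-6 library stood far above both DDC libraries, and the GFP plasmid libraries held 2 counts or fewer together. Rtn4rl2, a Nogo receptor family member, had 64.1, 95.6 and 81.3 CPM in IL-6 libraries, against 0.106 and 0.0446 CPM in DDC libraries (ratio 1124, counting interval 384 to 5451). Eps8l1, which acts on actin, had 58.6, 68.3 and 37.1 CPM in IL-6 libraries, against 0.106 and 0 CPM in DDC libraries (ratio 1124, 311 to 9287).

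Some of these genes followed replicate 3 and others did not. Cyp17a1, a steroid hydroxylase, had 117, 220.4 and 567 CPM in IL-6 libraries, against 1.59 and 0.668 CPM in DDC libraries (8.07 ± 1.18, adjusted p = 0.00113), with the highest level in replicate 3. Obp2a, a lipocalin, had 538, 317 and 46.2 CPM in IL-6 libraries, against 0.742 and 1.203 CPM in DDC libraries (8.25 ± 1.34, adjusted p = 0.00227), and replicate 3 was its lowest IL-6 library. Trat1, an adaptor of the T cell receptor complex, had 64.3, 74.6 and 8.73 CPM in IL-6 libraries, against 0 and 0 CPM in DDC libraries (at least 664-fold higher, adjusted p = 0.00975), with replicate 3 again lowest and the call lost without DDC replicate 2 (adjusted p = 0.0548). Cd28, a T cell costimulatory receptor, had 10.7, 22.4 and 36.8 CPM in IL-6 libraries, against 0 and 0.0891 CPM in DDC libraries (ratio 501, counting interval 138 to 4139), with replicate 3 highest. Cd28 made up nearly all of the summed T and NK cell markers, of which 5 of 11 were in the table: Cd4, Cd8a, Lck and Nkg7 were each below 1 CPM in all 5 libraries. Rnf138rt1, a retrotransposed copy of Rnf138 whose reads may be shared with its parent gene, had 35.4, 49.01 and 34.3 CPM in IL-6 libraries, against 0.212 and 0 CPM in DDC libraries (8.55 ± 1.31, adjusted p = 0.00207).

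**Figure D3:**
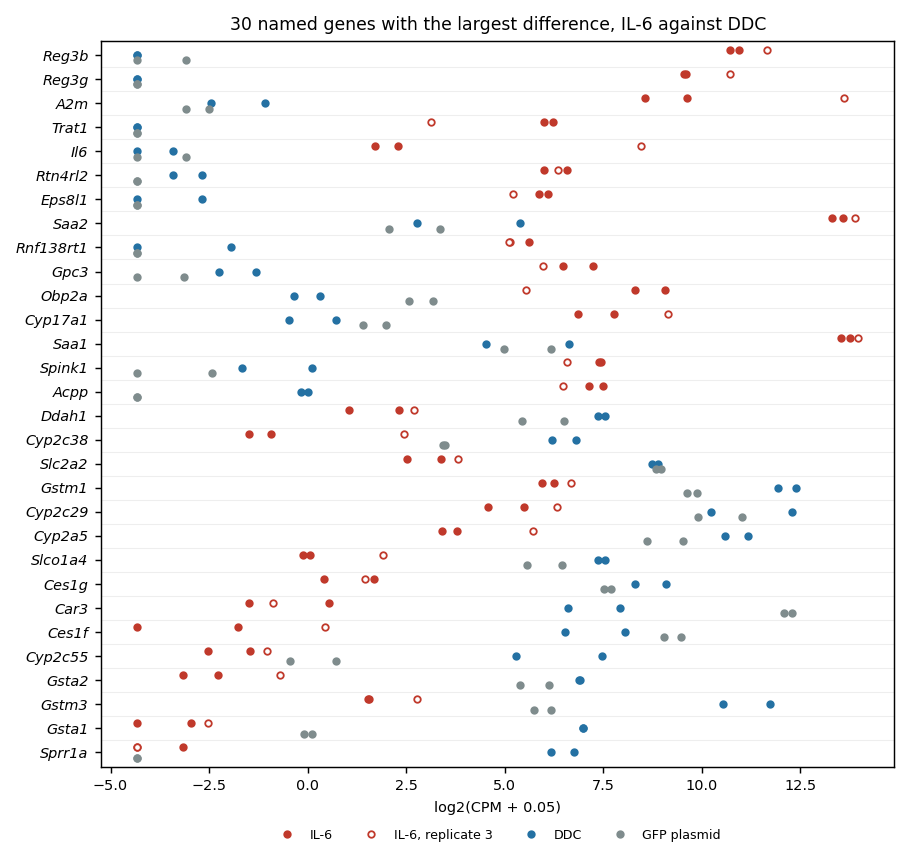
Level of each of the 30 genes named for the largest differences, as log2(CPM + 0.05), in the IL-6 (red, replicate 3 as an open circle), DDC (blue) and GFP plasmid (grey) libraries. For genes from Reg3b to Acpp every IL-6 library lay above both DDC libraries, and for genes from Ddah1 to Sprr1a below them. The rule that picked these genes required this separation.

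Promoters are shown for genes at both ends of the comparison because STAT3 binds the motif TTCNNNGAA and NRF2 the antioxidant response element TGACNNNGC. Sequences are RefSeq promoter windows of GRCm38.p6, from 250 bases before to 50 after the gene start, 5′ to 3′ on the gene's strand, and each motif was searched on both strands. TTCNNNGAA reads the same on both strands, and none of the windows printed here holds both motifs. TTCNNNGAA occurred in 8.3% of 32851 promoter windows of the table and TGACNNNGC in 12.4%. Of the 15 genes named for the largest rise, 12 had a window, 1 with TTCNNNGAA (Reg3b) and 1 with TGACNNNGC (Rnf138rt1). Of the 15 named for the largest fall, 13 had a window, 1 with TTCNNNGAA (Gsta1) and 1 with TGACNNNGC (Sprr1a). Of 6 genes named whatever their result (Il6, Il6ra, Il6st, Stat3, Socs3 and Sox9), 5 had a window and 1 held TTCNNNGAA (Socs3). A match describes letters only and is not a binding site. Capitals mark the match. The windows are Socs3 at chr11:117969317-117969616 (minus strand, match 154 bases before the gene start), Reg3b at chr6:78370635-78370934 (plus strand, 129 bases), Gsta1 at chr9:78230419-78230718 (plus strand, 162 bases) and Sprr1a at chr3:92485832-92486131 (minus strand, 148 bases, motif on the opposite strand).
Socs3: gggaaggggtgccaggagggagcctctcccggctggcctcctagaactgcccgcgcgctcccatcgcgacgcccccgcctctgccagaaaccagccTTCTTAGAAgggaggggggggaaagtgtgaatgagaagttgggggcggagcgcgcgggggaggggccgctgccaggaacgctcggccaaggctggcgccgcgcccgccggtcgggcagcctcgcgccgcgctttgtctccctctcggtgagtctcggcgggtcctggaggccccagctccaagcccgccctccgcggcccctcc
Reg3b: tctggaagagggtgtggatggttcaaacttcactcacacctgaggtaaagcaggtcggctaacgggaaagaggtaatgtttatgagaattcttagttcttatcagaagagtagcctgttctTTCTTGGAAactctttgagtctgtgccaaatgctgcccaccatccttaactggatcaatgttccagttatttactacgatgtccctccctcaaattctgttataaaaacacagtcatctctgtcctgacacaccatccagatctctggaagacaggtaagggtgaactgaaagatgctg
Gsta1: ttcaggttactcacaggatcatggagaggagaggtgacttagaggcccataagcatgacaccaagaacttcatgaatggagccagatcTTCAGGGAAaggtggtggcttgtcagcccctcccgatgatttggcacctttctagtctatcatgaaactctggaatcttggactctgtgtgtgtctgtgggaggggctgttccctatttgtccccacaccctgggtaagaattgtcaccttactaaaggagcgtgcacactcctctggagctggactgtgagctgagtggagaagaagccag
Sprr1a: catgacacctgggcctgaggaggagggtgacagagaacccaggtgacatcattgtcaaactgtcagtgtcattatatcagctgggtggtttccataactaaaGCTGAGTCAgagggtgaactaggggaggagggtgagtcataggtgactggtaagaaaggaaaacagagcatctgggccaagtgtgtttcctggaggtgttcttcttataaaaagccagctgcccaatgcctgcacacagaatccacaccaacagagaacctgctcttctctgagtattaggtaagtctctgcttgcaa

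Metal handling genes were split, with 7 of 22 higher and 3 lower. Mt1, metallothionein 1, which binds zinc and copper, had 1974, 2077 and 1573 CPM in IL-6 libraries, against 68.4 and 93.3 CPM in DDC libraries, and 90.01 and 136 CPM with the GFP plasmid. The DDC libraries were at the GFP plasmid level, and all IL-6 libraries were well above it (4.54 ± 0.69, adjusted p = 0.00148). Slc30a10, a manganese exporter, was also higher (2.65 ± 0.42, adjusted p = 0.00194). In the other direction, Slc40a1, the iron exporter ferroportin, had 72.3, 60.5 and 49.8 CPM in IL-6 libraries, against 213 and 236 CPM in DDC libraries, and 174 and 167 CPM with the GFP plasmid. The IL-6 libraries lay below those of both other groups (IL-6 over DDC -1.88 ± 0.27, adjusted p = 0.00103). Kupffer cells also express Slc40a1, and their markers summed higher in DDC, with Slc40a1 among them; their part was not tested. Slc39a4, a zinc importer, was above the GFP plasmid in DDC (1.79 ± 0.27) and lower in IL-6 than in DDC (-1.61 ± 0.24, adjusted p = 0.00113).

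On the DDC side, glutathione S-transferases, which join glutathione to reactive compounds, had the largest share of members called lower among the 38 lists. Of 22 tested, 14 were lower in IL-6 and 1 higher, with a median of -2.25. Gstm1 had 76.8, 62.1 and 104 CPM in IL-6 libraries, against 5365 and 3942 CPM in DDC libraries, and 945 and 792 CPM with the GFP plasmid. The groups stood in the order IL-6, GFP plasmid, DDC from low to high in every library (IL-6 over DDC -5.85 ± 0.53, adjusted p = 7.67e-05). Gstm3 had 2.92, 2.84 and 6.86 CPM in IL-6 libraries, against 3399 and 1504 CPM in DDC libraries (-9.18 ± 0.77, adjusted p = 4.91e-05), and Gsta2 had 0.158, 0.0616 and 0.561 CPM in IL-6 libraries, against 118 and 120.5 CPM in DDC libraries (-8.77 ± 0.69, adjusted p = 2.89e-05). Gsta1 had 3 counts in the IL-6 libraries together, or 0.0789, 0 and 0.125 CPM, against 128 and 128 CPM in the DDC libraries. DDC exceeded IL-6 by a ratio of 1913, with a counting interval of 654 to 9279.9 (adjusted p = 5.08e-05). Gsta and Gstm genes lie in clusters of close copies, so the split of reads between single members is uncertain. Mgst3, a membrane-bound relative encoded elsewhere, was lower too (-3.32 ± 0.24, adjusted p = 2.00e-05). Mgst2 was the exception, at 1.18, 0.308 and 0.873 CPM in IL-6 libraries, against 0 and 0.0446 CPM in DDC libraries (4.66 ± 1.198, adjusted p = 0.0288), and lost its call without DDC replicate 1 or DDC replicate 2 (adjusted p = 0.185 or 0.125).

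Most transferases lay below the GFP plasmid in IL-6, and more lay above than below it in DDC. Against the GFP plasmid, 1 of the 22 was higher and 17 were lower in IL-6 (median -1.99), while 5 were higher and 2 lower in DDC (median 0.21). Gstm1 was called in both, at -3.43 ± 0.49 in IL-6 and at 2.42 ± 0.54 in DDC over the GFP plasmid.

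NRF2 targets and glutathione synthesis genes had 14 of 29 lower and 0 higher, with a median of -0.95, and 15 lower without IL-6 replicate 3. Nqo1, a quinone reductase and classic NRF2 target, had 5.29, 5.18 and 6.43 CPM in IL-6 libraries, against 25.6 and 35.7 CPM in DDC libraries, and 5.31 and 5.297 CPM with the GFP plasmid. IL-6 did not pass against the GFP plasmid (0.09 ± 0.30, adjusted p = 0.863), and both DDC libraries were above both of these groups (IL-6 over DDC -2.44 ± 0.29, adjusted p = 0.000302). Srxn1, which repairs peroxiredoxins, had 35.4, 42.7 and 61.6 CPM in IL-6 libraries, against 282 and 381 CPM in DDC libraries, and 34.1 and 36.7 CPM with the GFP plasmid (IL-6 over DDC -2.83 ± 0.41, adjusted p = 0.00112). Gclc, the catalytic subunit of glutathione synthesis, was below the GFP plasmid in IL-6 (-1.28 ± 0.37, adjusted p = 0.0231) and lower than in DDC (-2.27 ± 0.37, adjusted p = 0.00228). Ugdh, which makes UDP-glucuronate for conjugation, had 40.1, 39.3 and 101.007 CPM in IL-6 libraries, against 449 and 602 CPM in DDC libraries, with replicate 3 the highest IL-6 library (-3.13 ± 0.41, adjusted p = 0.0006103). The exporter Abcc4 (-2.41 ± 0.33) and epoxide hydrolase Ephx1 (-2.25 ± 0.25) were lower with adjusted p of 0.000716 or less. Slc7a11, the cystine importer, had 0.395, 0.308 and 0.624 CPM in IL-6 libraries, against 6.89 and 8.65 CPM in DDC libraries (-4.11 ± 1.104, adjusted p = 0.0319), and lost its call with any 1 library left out (adjusted p = 0.05900 to 0.125). Hmox1, haem oxygenase 1, rose over the GFP plasmid in both groups (2.60 ± 0.56 in IL-6 and 3.41 ± 0.60 in DDC) and did not differ past the threshold between them (-0.80 ± 0.48, adjusted p = 0.311).

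Haem genes themselves were called in both directions, with 4 of 24 higher and 3 lower and a median of -0.14. Over all genes, 6.03% were higher and 5.55% lower. Hpx, given above, was among the higher genes. Alas1, the rate-limiting enzyme of haem synthesis in liver, had 161, 197 and 265 CPM in IL-6 libraries, against 529 and 385 CPM in DDC libraries, and 519 and 1573 CPM with the GFP plasmid. The GFP plasmid libraries were far apart, and IL-6 over DDC did not pass (-1.14 ± 0.58, adjusted p = 0.237). Alas2, the red cell form of that enzyme, in which 15.5% of exon bases are shared with another gene, had 5.05, 3.08 and 7.99 CPM in IL-6 libraries, against 18.2 and 22.9 CPM in DDC libraries and 161 and 175 CPM with the GFP plasmid (IL-6 over DDC -1.93 ± 0.33, adjusted p = 0.00304). Slc48a1, a haem transporter, was lower in IL-6 (-1.49 ± 0.25, adjusted p = 0.00301).

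Cytochrome P450 genes of families 1 to 4, which oxidise drugs, steroids and fatty acids, had 18 of 49 members lower and 1 higher, with a median of -1.37, and 22 lower without IL-6 replicate 3. Cyp3a11, a major drug-oxidising enzyme, had 971, 472 and 229 CPM in IL-6 libraries, against 15591 and 9979 CPM in DDC libraries, and 6375 and 3630.1 CPM with the GFP plasmid. Every IL-6 library was below every library of the other groups (IL-6 over DDC -4.52 ± 0.53, adjusted p = 0.000302). Cyp2a5 had 13.7, 10.5 and 52.9 CPM in IL-6 libraries, against 2333 and 1536 CPM in DDC libraries (-6.23 ± 0.73, adjusted p = 0.000302), and Cyp2c29 had 45.4, 24.04 and 80.3 CPM in IL-6 libraries, against 5047 and 1211 CPM in DDC libraries (-5.97 ± 0.76, adjusted p = 0.000481). The DDC libraries were about 4-fold apart for Cyp2c29 but both lay above all IL-6 libraries. Cyp2c55 had 0.316, 0.123 and 0.437 CPM in IL-6 libraries, against 179 and 38.9 CPM in DDC libraries, and 1.601 and 0.688 CPM with the GFP plasmid. It was above the GFP plasmid in DDC (6.55 ± 0.93, adjusted p = 0.00156), and IL-6 was not past the threshold (-1.96 ± 1.08, adjusted p = 0.201). Reads of Cyp2a and Cyp2c genes may be split between close copies. Cyp1a2, a pericentral enzyme, had 49.7, 46.3 and 15.3 CPM in IL-6 libraries, against 993 and 661 CPM in DDC libraries (-4.48 ± 0.74, adjusted p = 0.00239). Against the list, Cyp3a13 was higher in IL-6, with 775, 699.8 and 746 CPM in IL-6 libraries, against 166 and 141 CPM in DDC libraries (2.27 ± 0.24, adjusted p = 0.000147).

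Conjugation and ester hydrolysis genes had 19 of 38 lower and 1 higher, with a median of -1.44. Against the GFP plasmid this list had 28 lower and 1 higher in IL-6, and 11 lower and 0 higher in DDC. The carboxylesterase Ces1g had 3.16, 1.29 and 2.68 CPM in IL-6 libraries, against 316 and 547 CPM in DDC libraries (-7.51 ± 0.54, adjusted p = 2.00e-05). Ces1f had 0, 0.247 and 1.31 CPM in IL-6 libraries, against 267 and 92.8 CPM in DDC libraries (-8.35 ± 0.85, adjusted p = 0.0001200), and both belong to a cluster of close copies. Ces2c, from another esterase subfamily, was lower by less (-2.78 ± 0.24, adjusted p = 4.91e-05). Ugt2a3, which adds glucuronic acid, had 44.1, 34.2 and 25.8 CPM in IL-6 libraries, against 208 and 183 CPM in DDC libraries, and 428 and 469.7 CPM with the GFP plasmid (-2.49 ± 0.24, adjusted p = 9.35e-05). Ces3b was the exception, with 92.2, 83.8 and 171 CPM in IL-6 libraries, against 35.95 and 33.7 CPM in DDC libraries. The GFP plasmid libraries held 719 and 754 CPM, so that both groups were below them. IL-6 was higher than DDC (1.73 ± 0.36, adjusted p = 0.00878), a call lost without DDC replicate 1 or DDC replicate 2 (adjusted p = 0.0711 or 0.0918).

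Transporters of bile acids, anions and phospholipids had 10 of 22 lower and 1 higher, with a median of -1.37. Slco1a4, an organic anion importer, had 0.868, 0.986 and 3.74 CPM in IL-6 libraries, against 164 and 186 CPM in DDC libraries (-6.53 ± 0.64, adjusted p = 0.000114). Abcb1a, a drug exporter of the P-glycoprotein family, had 4.18, 2.03 and 3.87 CPM in IL-6 libraries, against 70.00 and 56.6 CPM in DDC libraries, and 1.54 and 0.206 CPM with the GFP plasmid. It rose in both groups and by far more in DDC (1.91 ± 0.53 in IL-6 and 6.15 ± 0.58 in DDC against the GFP plasmid, and -4.24 ± 0.43, adjusted p = 0.0001197 for IL-6 over DDC). Abcb4, which flips phosphatidylcholine into bile, had 142, 106 and 282 CPM in IL-6 libraries, against 799 and 906 CPM in DDC libraries (-2.27 ± 0.37, adjusted p = 0.00227), and rose over the GFP plasmid in DDC (1.74 ± 0.42, adjusted p = 0.0159). Abcb11, the bile salt export pump, was lower (-1.75 ± 0.47, adjusted p = 0.03300), a call lost without IL-6 replicate 2, IL-6 replicate 3 or DDC replicate 1 (adjusted p = 0.0961, 0.0722 or 0.3897). Slc10a1, the main bile acid importer, had 130.2, 113 and 121 CPM in IL-6 libraries, against 125 and 124 CPM in DDC libraries, which overlap. It was below the 697 and 757 CPM of the GFP plasmid libraries in both (-2.58 ± 0.60 in IL-6 and -2.54 ± 0.69 in DDC), and IL-6 over DDC was -0.04 ± 0.60, adjusted p = 0.976.

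**Figure D4:**
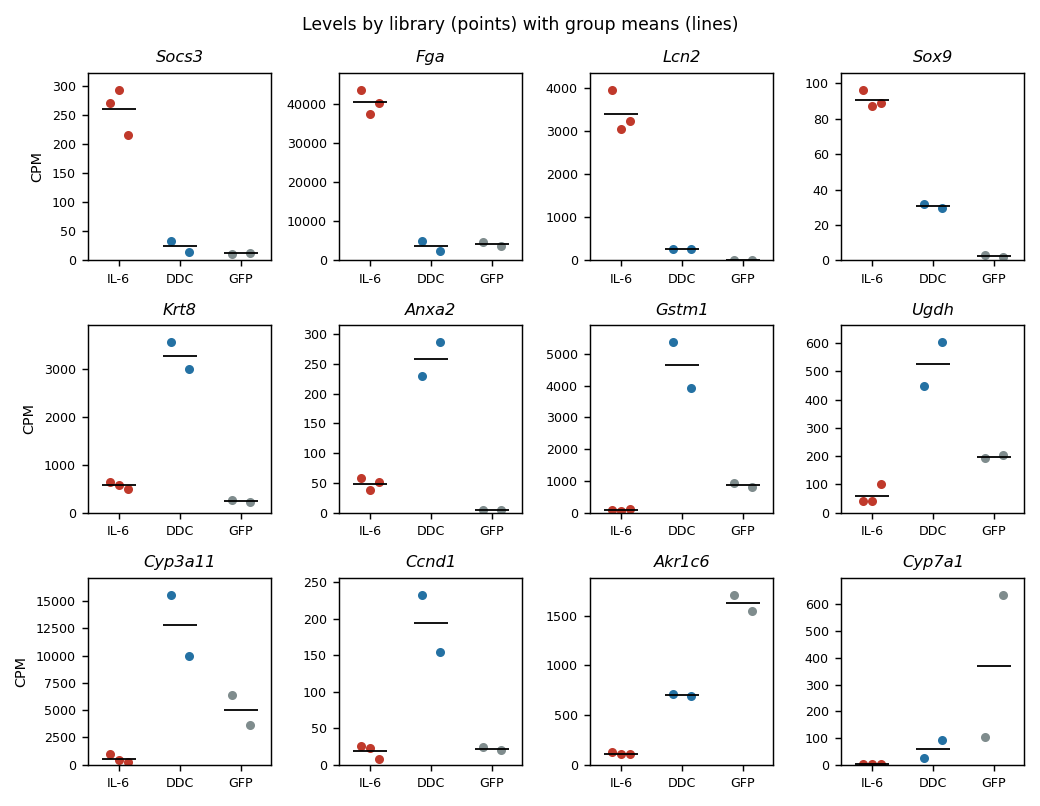
CPM of 12 genes in each IL-6 (red), DDC (blue) and GFP plasmid (grey) library, with group means as lines and linear axes that start at 0. Socs3, Fga, Lcn2 and Sox9 were highest in IL-6, and Krt8, Anxa2, Gstm1, Ugdh, Cyp3a11 and Ccnd1 in DDC. Akr1c6 and Cyp7a1 had their highest mean with the GFP plasmid and their lowest in IL-6.

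Among simple epithelial keratins and cytoskeletal genes, more members passed over the GFP plasmid in DDC than in IL-6. Of 25 members, 6 were lower and 0 higher in IL-6 than in DDC, with a median of -1.08. Against the GFP plasmid, 13 were higher and 1 lower in IL-6, and 19 higher and 0 lower in DDC. Krt8, which pairs with Krt18 in hepatocyte filaments, had 646, 580.3 and 482 CPM in IL-6 libraries, against 3543 and 2995 CPM in DDC libraries, and 259 and 216 CPM with the GFP plasmid. The groups stood in the order DDC, IL-6, GFP plasmid in every library (IL-6 over DDC -2.52 ± 0.26, adjusted p = 0.000135, IL-6 over GFP plasmid 1.26 ± 0.27, adjusted p = 0.00526). Krt18 had 583, 570.4 and 487 CPM in IL-6 libraries, against 1827 and 1313 CPM in DDC libraries (-1.52 ± 0.31, adjusted p = 0.00869), a call lost without DDC replicate 1 (adjusted p = 0.0908). Both keratins have many processed copies in the genome, which could take a share of their reads. Krt23, a keratin of stressed and biliary epithelium, was close to absent in IL-6, with 0.158, 0 and 0 CPM in IL-6 libraries, against 12.99 and 24.7 CPM in DDC libraries and 1.54 and 2.13 CPM with the GFP plasmid (DDC over IL-6 ratio 435, counting interval 119.9 to 3594). Vim, vimentin of mesenchymal cells, was lower (-2.76 ± 0.78, adjusted p = 0.0402) and lost that call with any 1 library left out (0.0861 to 0.163). Stellate markers summed higher in DDC, as given above, and their part in Vim was not tested.

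Sprr1a, a small proline-rich protein of cornified epithelium and injured neurons, headed the 15 genes named for the largest fall. It had 0, 0.0616 and 0 CPM in IL-6 libraries, against 109 and 72.6 CPM in DDC libraries, and no count with the GFP plasmid. A single count in the IL-6 libraries gave a DDC over IL-6 ratio of 4010.1 (counting interval 719 to 158431, adjusted p = 0.0001495). Annexins and S100 genes, calcium-binding proteins of membranes and the cytoskeleton, had 5 of 14 lower and 0 higher. S100a10 had 39.1, 31.99 and 50.2 CPM in IL-6 libraries, against 178 and 147 CPM in DDC libraries (-2.01 ± 0.31, adjusted p = 0.00174), and Anxa6 was lower by less (-1.33 ± 0.21, adjusted p = 0.00195). Anxa2, the partner of S100a10, had 57.8, 37.3 and 50.8 CPM in IL-6 libraries, against 229.9 and 286 CPM in DDC libraries, and 4.55 and 4.33 CPM with the GFP plasmid. It rose in both groups over the GFP plasmid (3.45 ± 0.69 in IL-6 and 5.86 ± 0.79 in DDC), and IL-6 was lower than DDC (-2.41 ± 0.58, adjusted p = 0.0194), a call lost without IL-6 replicate 2, DDC replicate 1 or DDC replicate 2 (adjusted p = 0.0797, 0.0615 or 0.105).

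Of 19 progenitor and biliary genes, 1 was higher and 4 were lower in IL-6 than in DDC, and 0 were higher and 3 lower of 18 without IL-6 replicate 3. The 1 higher was Sox9. Cholangiocyte markers summed higher in IL-6, mostly through Spp1, as given above, and their part in these genes was not tested. Over the 19 genes, 9 were higher and 1 lower in IL-6, and 14 higher and 0 lower in DDC, against the GFP plasmid. Sox9, which specifies bile duct cells and marks progenitors, had 96.1, 87.3 and 88.7 CPM in IL-6 libraries, against 31.7 and 29.4 CPM in DDC libraries, and 3.01 and 2.13 CPM with the GFP plasmid. The libraries did not overlap and stood in the order IL-6, DDC, GFP plasmid (IL-6 over DDC 1.57 ± 0.44, adjusted p = 0.0392). That call was lost with any 1 of the 5 libraries left out (adjusted p = 0.0565 to 0.229), and was 0.0565 without IL-6 replicate 3. Spp1, osteopontin, in which 18.8% of exon bases are shared with another gene, had 10654, 6805 and 2114 CPM in IL-6 libraries, against 486 and 539 CPM in DDC libraries, and 1.66 and 3.44 CPM with the GFP plasmid. It was above the GFP plasmid in both groups (11.32 ± 2.06 in IL-6 and 7.65 ± 1.82 in DDC), but the IL-6 libraries spanned a 5-fold range and IL-6 over DDC did not pass in edgeR (3.67 ± 1.44, adjusted p = 0.124), though it did in DESeq2 (adjusted p = 0.0424). Cldn4, a tight junction protein, had 0.395, 1.05 and 1.31 CPM in IL-6 libraries, against 6.63 and 12.4 CPM in DDC libraries (-3.35 ± 0.82, adjusted p = 0.0264). It lost its call without IL-6 replicate 1, IL-6 replicate 2, DDC replicate 1 or DDC replicate 2 (adjusted p = 0.0853, 0.0851, 0.0575 or 0.155). Lgals3, a galectin also made by macrophages, was lower (-3.26 ± 0.89, adjusted p = 0.0339), and lost its call with any 1 library left out (0.0845 to 0.152).

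The list of YAP targets, genes induced by the growth regulator YAP, also holds Yap1, Wwtr1, Tead1 and Tead4, which belong to the YAP pathway itself. It had 4 of 22 lower and 0 higher, and 2 lower without IL-6 replicate 3. Crim1, a membrane protein that binds BMPs, had 6.63, 8.26 and 6.11 CPM in IL-6 libraries, against 46.1 and 41.9 CPM in DDC libraries (-2.65 ± 0.24, adjusted p = 6.51e-05). Its libraries did not overlap, and DDC was above the 9.86 and 12.2 CPM of the GFP plasmid (2.00 ± 0.27, adjusted p = 0.00117). The others, Tgfb2, Myof and Axl, lost their calls with 4, 4 and 5 of the 5 single libraries left out, at adjusted p of 0.0156 to 0.115 for Tgfb2, 0.0455 to 0.327 for Myof and 0.0724 to 0.324 for Axl over the 5.

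Of 36 cell cycle genes, 11 were higher and 1 lower in IL-6, and 12 higher and 0 lower in DDC, against the GFP plasmid, and the others did not pass. Between IL-6 and DDC, 1 was lower and 0 higher by edgeR, with a median of -0.02. That gene was Ccnd1, cyclin D1, which drives entry into the cycle, with 25.6, 22.99 and 8.11 CPM in IL-6 libraries, against 233 and 155 CPM in DDC libraries and 23.9 and 20.02 CPM with the GFP plasmid. IL-6 did not pass against the GFP plasmid (-0.22 ± 0.53, adjusted p = 0.794), and DDC was above it (3.14 ± 0.62, adjusted p = 0.00692) and above IL-6 (IL-6 over DDC -3.36 ± 0.54, adjusted p = 0.00199). In Ccnd1, 23.4% of exon bases are shared with a neighbouring gene. Mki67, a proliferation marker, had 79.4, 39.1 and 18.7 CPM in IL-6 libraries, against 28.6 and 15.2 CPM in DDC libraries and did not pass (1.06 ± 1.00, adjusted p = 0.539). The replication factor Mcm6 did not pass either (-1.91 ± 0.60, adjusted p = 0.0615).

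Of 44 interferon targets, 17 were lower and 0 higher in IL-6 than in DDC, with a median of -1.02, and 15 were lower without IL-6 replicate 3. Irf7, a transcription factor that amplifies interferon responses, had 7.500, 11.1 and 9.92 CPM in IL-6 libraries, against 38.6 and 32.1 CPM in DDC libraries, and 12.6 and 13.7 CPM with the GFP plasmid. DDC was above the GFP plasmid (1.43 ± 0.31, adjusted p = 0.0107) and IL-6 not past the threshold (-0.47 ± 0.28, adjusted p = 0.247), with IL-6 over DDC at -1.89 ± 0.28, adjusted p = 0.00113. The antiviral enzyme Rsad2 had 0.789, 1.29 and 1.81 CPM in IL-6 libraries, against 20.6 and 12.8 CPM in DDC libraries (-3.66 ± 0.60, adjusted p = 0.00243), and the antiviral gene Oasl1 had 0.789, 3.02 and 3.43 CPM in IL-6 libraries, against 14.4 and 49.1 CPM in DDC libraries (-3.69 ± 0.62, adjusted p = 0.00282). MHC class I genes did not follow, with 1 of 21 higher and 0 lower. H2-Q7 was that gene, a nonclassical class I member with close copies (1.41 ± 0.40, adjusted p = 0.0394), and lost its call without IL-6 replicate 1, IL-6 replicate 2, DDC replicate 1 or DDC replicate 2 (adjusted p = 0.0978, 0.113, 0.176 or 0.221). By the labels the DDC mice received an AAV and the IL-6 mice did not, so the virus and the diet cannot be told apart in these genes.

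Chemokines, cytokines and matrix genes were called in both directions. Of 29 chemokine and cytokine genes, 2 were higher and 6 lower, and 3 higher and 4 lower of 28 without IL-6 replicate 3. Ccl2, which attracts monocytes, had 0.868, 0.986 and 1.62 CPM in IL-6 libraries, against 29.9 and 25.4 CPM in DDC libraries (-4.56 ± 0.64, adjusted p = 0.000878). Cxcl10, an interferon-induced chemokine, had 1.11, 1.05 and 3.56 CPM in IL-6 libraries, against 70.1 and 4.77 CPM in DDC libraries (-4.28 ± 1.03, adjusted p = 0.0192). Its level rested on DDC replicate 1, and the call was lost without IL-6 replicate 1, IL-6 replicate 2 or DDC replicate 1 (adjusted p = 0.07204, 0.0797 or 0.464). In the other direction, Cxcl14 had 727, 546 and 211 CPM in IL-6 libraries, against 24.4 and 10.7 CPM in DDC libraries (4.82 ± 1.11, adjusted p = 0.0159). It lost its call without DDC replicate 1 or DDC replicate 2 (adjusted p = 0.0796 or 0.152). Of 29 matrix genes, 3 were higher and 6 lower, and 3 higher and 3 lower without IL-6 replicate 3. Fn1, fibronectin, had 11761, 9432 and 10999 CPM in IL-6 libraries, against 2476 and 2320.4 CPM in DDC libraries (2.16 ± 0.42, adjusted p = 0.006201), and Timp1, an inhibitor of matrix proteases, 34.2, 28.3 and 8.05 CPM in IL-6 libraries, against 2.02 and 2.09 CPM in DDC libraries (3.51 ± 0.62, adjusted p = 0.003800). Fn1 lost its call without DDC replicate 1 or DDC replicate 2 (adjusted p = 0.0603 or 0.0759), and Timp1 without DDC replicate 2 (adjusted p = 0.0508). The protease Mmp12, typical of macrophages, had 0.947, 0.555 and 0.437 CPM in IL-6 libraries, against 37.97 and 21.3 CPM in DDC libraries (-5.53 ± 1.28, adjusted p = 0.0161). It lost its call without IL-6 replicate 2 or DDC replicate 1 (adjusted p = 0.06799 or 0.0719). The membrane protease Mmp15 was lower (-2.76 ± 0.50, adjusted p = 0.00439), a call lost without DDC replicate 2 (adjusted p = 0.0577). Kupffer and stellate cell marker sums moved in the same direction as Ccl2 and Mmp12, and their part was not tested.

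Many urea cycle and amino acid genes were below the GFP plasmid in both groups. Urea cycle and amino acid genes had 3 of 40 higher and 5 lower between IL-6 and DDC, with a median of 0.12, while 26 were lower and 2 higher in IL-6, and 21 lower and 0 higher in DDC, against the GFP plasmid. Gnmt, which consumes methyl groups, had overlapping levels, with 407, 487 and 593 CPM in IL-6 libraries, against 544 and 461 CPM in DDC libraries and 2499 and 3238 CPM with the GFP plasmid (IL-6 over DDC -0.02 ± 0.36, adjusted p = 0.9804). Sds, serine dehydratase, separated the groups, with 176, 173 and 88.7 CPM in IL-6 libraries, against 30.8 and 24.9 CPM in DDC libraries and 164 and 301 CPM with the GFP plasmid. It was below the GFP plasmid in DDC (-3.06 ± 0.59, adjusted p = 0.00615). It was higher in IL-6 than in DDC (2.39 ± 0.54, adjusted p = 0.01499), a call lost without either DDC library. Other genes share 29.6% of the exon bases of Sds.

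Bile acid synthesis had 1 of 18 genes higher and 4 lower. Cyp7a1, the rate-limiting enzyme, had 3.79, 3.21 and 2.18 CPM in IL-6 libraries, against 23.7 and 92.2 CPM in DDC libraries, and 103 and 636 CPM with the GFP plasmid, whose libraries were 6-fold apart. It was lowest in IL-6 (IL-6 over DDC -4.25 ± 0.92, adjusted p = 0.0112), a call lost without DDC replicate 2 (adjusted p = 0.122). Akr1c6, a steroid reductase, had 127, 104 and 105 CPM in IL-6 libraries, against 715 and 693 CPM in DDC libraries, and 1710.2 and 1549.6 CPM with the GFP plasmid (-2.65 ± 0.32, adjusted p = 0.000385). Cyp27a1 was lower as well (-1.57 ± 0.27, adjusted p = 0.00284). Slco1a1, an anion importer of male liver, had 3.55, 2.22 and 2.68 CPM in IL-6 libraries, against 44.8 and 34.8 CPM in DDC libraries, and 1199 and 951 CPM with the GFP plasmid. Both groups were far below the GFP plasmid and IL-6 further (-3.82 ± 0.44, adjusted p = 0.000301). It was 1 of 26 sex-dimorphic and growth hormone genes lower between the groups, where 1 was higher, while 15 were lower in IL-6 and 13 in DDC against the GFP plasmid, with 1 higher in each. Between the groups DESeq2 called 5 of these higher and 4 lower, and the edgeR fit of the compared groups alone 3 lower.

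Glucose and glycogen genes had 9 of 30 lower and 1 higher. Slc2a2, the glucose transporter GLUT2, had 10.5, 5.67 and 14.1 CPM in IL-6 libraries, against 424 and 479.6 CPM in DDC libraries, and 460.4 and 506 CPM with the GFP plasmid. DDC did not pass against the GFP plasmid (-0.10 ± 0.47, adjusted p = 0.908), and all IL-6 libraries were far below both (IL-6 over DDC -5.49 ± 0.48, adjusted p = 5.77e-05). The glycogen genes Gbe1 (-2.59 ± 0.27, adjusted p = 0.000147), the branching enzyme, and Ppp1r3b (-2.55 ± 0.40, adjusted p = 0.00194), a phosphatase subunit, were lower too. Fbp1, of glucose synthesis, was the member that went the other way (1.97 ± 0.50, adjusted p = 0.02601), a call lost without DDC replicate 1 or DDC replicate 2 (adjusted p = 0.104 or 0.2104). Car3, carbonic anhydrase 3, fell in both groups against 5006 and 4329 CPM with the GFP plasmid, to 1.42, 0.308 and 0.499 CPM in IL-6 libraries, against 97.04 and 244 CPM in DDC libraries (IL-6 over DDC -7.88 ± 1.09, adjusted p = 0.000809). Ddah1, which degrades the nitric oxide synthase inhibitor ADMA, had 4.97, 2.03 and 6.43 CPM in IL-6 libraries, against 189 and 166 CPM in DDC libraries (-5.31 ± 0.42, adjusted p = 3.02e-05).

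Lipid lists differed in their share of members called. Of 32 sterol and fatty acid synthesis genes, 0 were called in either direction by edgeR, with a median of -0.22. At an unadjusted p under 0.05, 4 were lower and 0 higher, and DESeq2 called 1 lower and 0 higher. The members nearest the threshold were Pnpla3 (-2.90 ± 0.91, adjusted p = 0.0608) and Thrsp (-2.43 ± 1.02, adjusted p = 0.152). Fatty acid oxidation had 1 of 32 higher and 4 lower. Without IL-6 replicate 3 it had 0 higher and 9 lower, where 5.34% of all genes were lower. The replicate block gave 7 lower, and the fit of the compared groups alone 2. Acaa1b, a peroxisomal thiolase, had 23.4, 17.3 and 83.2 CPM in IL-6 libraries, against 387 and 399 CPM in DDC libraries, with replicate 3 highest in IL-6 (-3.25 ± 0.59, adjusted p = 0.00446). Among 25 apolipoprotein and lipoprotein genes, with 2 higher and 1 lower, Lipc, hepatic lipase, had 5.92, 4.99 and 8.86 CPM in IL-6 libraries, against 148 and 115 CPM in DDC libraries, and 248 and 227 CPM with the GFP plasmid (IL-6 over DDC -4.31 ± 0.33, adjusted p = 2.21e-05).

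Zonation lists hold genes expressed around the central vein or the portal vein. Pericentral genes had 2 of 23 higher and 5 lower, with a median of -0.91. In 11 of 23 every IL-6 library lay below both DDC libraries and in 2 above, against 25.6% and 24% of all genes. Without IL-6 replicate 3, 2 were higher and 10 lower. Slc13a3, a dicarboxylate importer, had 90.6, 68.8 and 89.8 CPM in IL-6 libraries, against 22.1 and 15.6 CPM in DDC libraries, against the direction of Cyp1a2 (2.14 ± 0.30, adjusted p = 0.000792). Periportal genes went both ways, with 4 of 23 higher and 3 lower and a median of 0.16. Ctsc, a lysosomal protease, had 796, 740.2 and 611 CPM in IL-6 libraries, against 76.7 and 69.8 CPM in DDC libraries (3.29 ± 0.49, adjusted p = 0.00124), while Cyp2f2 had 41.8, 34.1 and 37.7 CPM in IL-6 libraries, against 353 and 199 CPM in DDC libraries (-2.87 ± 0.34, adjusted p = 0.000324). The urea cycle enzyme Cps1 was lower (-1.98 ± 0.48, adjusted p = 0.02097), a call lost without IL-6 replicate 2, IL-6 replicate 3 or DDC replicate 1 (adjusted p = 0.0803, 0.0571 or 0.195). Among 31 hepatocyte transcription factors and nuclear receptors, 3 were higher and 4 lower. Gata4, a factor of liver development, had 4.89, 5.18 and 3.43 CPM in IL-6 libraries, against 20.5 and 11.9 CPM in DDC libraries (-1.85 ± 0.28, adjusted p = 0.00152), and Nr1d1, of the circadian clock, 18.6, 31.3 and 16.5 CPM in IL-6 libraries, against 73.2 and 62.3 CPM in DDC libraries (-1.61 ± 0.27, adjusted p = 0.00259).

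Stress lists other than those above showed few calls. The ATF4 list had 1 of 25 higher and 2 lower. Ddit4, an mTOR inhibitor of stressed cells, had 38.5, 50.7 and 34.6 CPM in IL-6 libraries, against 7.21 and 10.7 CPM in DDC libraries (2.20 ± 0.41, adjusted p = 0.00491), a call lost without DDC replicate 1 (adjusted p = 0.0684). Immediate early genes had 2 of 23 higher and 2 lower, and Ier3, a survival gene, had 115, 92.3 and 53.2 CPM in IL-6 libraries, against 7.64 and 5.61 CPM in DDC libraries and 0.384 and 0.482 CPM with the GFP plasmid (IL-6 over DDC 3.71 ± 0.37, adjusted p = 0.000114). Of 22 cytosolic heat shock genes, 0 were called by edgeR or DESeq2, with 1 higher and 1 lower at an unadjusted p under 0.05. Of 32 proteasome subunits, 0 were called by edgeR and 1 lower by DESeq2, with 1 higher and 1 lower at an unadjusted p under 0.05. Nearest the threshold were Hspa4l (-0.75 ± 0.31, adjusted p = 0.139) and Psmd8 (-0.64 ± 0.21, adjusted p = 0.0723).

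The same treatments were also compared in STAT3KO hepatocytes, where both groups shared genotype, AAV-TBG-Cre and its timing. The plasmid injection still differed together with the treatment in this pair, and its share cannot be told apart. Stat3 itself was at 109 ± 11.4 CPM in IL-6 STAT3KO and 68.5 ± 16.5 CPM in DDC STAT3KO (mean ± SD, n = 3 each), and at 372 ± 45.7 CPM in IL-6 and 131 ± 26.9 CPM in DDC (n = 3 and n = 2). The GFP plasmid libraries, at 109 and 98.9 CPM, were as high as IL-6 STAT3KO, and counts summed over a whole gene do not show a deletion of some exons. Here 718 genes were higher and 692 lower in IL-6 STAT3KO than in DDC STAT3KO, or 5.01% and 4.83%. The acute phase list had 5 of 31 higher and 3 lower, with a median of 0.41, against 26 higher and 0 lower in the groups without Cre. Serpina3n was at 532 ± 82.1 CPM in IL-6 STAT3KO and 219.8 ± 42.7 CPM in DDC STAT3KO (mean ± SD, n = 3 each). Socs3 was at 5.06 ± 1.43 CPM in IL-6 STAT3KO and 8.89 ± 2.49 CPM in DDC STAT3KO (-0.82 ± 0.31, adjusted p = 0.1199). Reg3b, Reg3g and Trat1 had no count in any STAT3KO library. Socs1 still separated the groups, at 21.5 ± 12.1 CPM in IL-6 STAT3KO and 0.206 ± 0.0496 CPM in DDC STAT3KO (6.61 ± 0.57, adjusted p = 7.67e-05). IL-6 STAT3KO libraries held little Il6 themselves, at 0.784 ± 0.248 CPM, against 0 ± 0 CPM in DDC STAT3KO.

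Among the STAT3KO libraries, DDC STAT3KO replicate 3 stood apart in markers of other cell types. Cholangiocyte markers summed to 72.1 to 107 CPM in IL-6 STAT3KO, against 337.9, 328.3 and 67.7 CPM in DDC STAT3KO. Kupffer cell markers summed to 551.1 to 729.2 CPM in IL-6 STAT3KO, against 973.2, 1022 and 328.3 CPM in DDC STAT3KO. Mitochondrial genes took 4.16% to 5.92% of the counts in IL-6 STAT3KO, against 2.03%, 5.38% and 5.26% in DDC STAT3KO, so that DDC STAT3KO replicate 1 was the low one. The part of these differences in the counts that follow was not tested.

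Between IL-6 STAT3KO and DDC STAT3KO, glutathione S-transferases had 1 of 22 higher and 2 lower, with a median of 0.05, and 0 to 3 higher and 1 to 2 lower with any 1 STAT3KO library left out. Cytochrome P450 genes had 7 of 49 higher and 3 lower, and 3 to 8 higher and 0 to 4 lower with any 1 left out. Gstm1 was at 4506 ± 2743 CPM in IL-6 STAT3KO and 4459 ± 1397 CPM in DDC STAT3KO (0.02 ± 0.42, adjusted p = 0.991), and Slc2a2 at 501 ± 222 CPM in IL-6 STAT3KO and 497 ± 213 CPM in DDC STAT3KO. Cytoskeletal genes had 0 of 25 higher and 16 lower, 18 lower without DDC STAT3KO replicate 3 and 9 lower without IL-6 STAT3KO replicate 3. Krt8 was at 450.002 ± 51.6 CPM in IL-6 STAT3KO and 3113 ± 775 CPM in DDC STAT3KO (-2.79 ± 0.25, adjusted p = 9.54e-05). Sprr1a was at 0.639 ± 0.744 CPM in IL-6 STAT3KO and 83.5 ± 54.4 CPM in DDC STAT3KO (-7.03 ± 0.77, adjusted p = 0.000495). Interferon targets stood the other way, with 34 of 44 higher and 0 lower, and 31 to 34 higher with any 1 STAT3KO library left out. Irf7 was at 177 ± 38.9 CPM in IL-6 STAT3KO and 34.2 ± 10.8 CPM in DDC STAT3KO (2.37 ± 0.26, adjusted p = 0.000277). MHC class I genes also had 17 of 21 higher and 0 lower, and 14 to 19 higher with any 1 STAT3KO library left out.

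**Figure D5:**
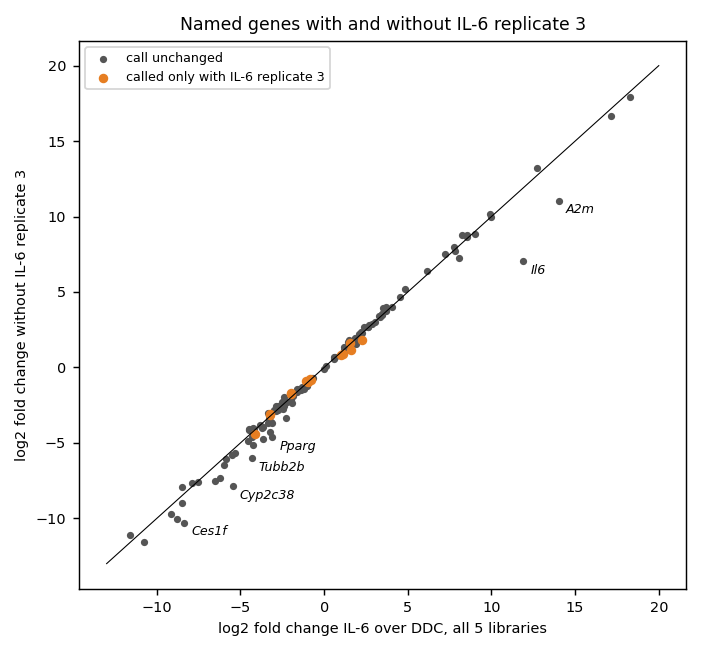
Log2 fold change of IL-6 over DDC for the named genes with all 5 libraries (x axis) and without IL-6 replicate 3 (y axis), with the line of equality. Orange points were called with all libraries and not without replicate 3. Points lie close to the line except for genes such as A2m and Il6, whose values were lower without that library.

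Of 146 genes named by the rule, 138 were called, and 14 of these lost the call without IL-6 replicate 3, among them Axl, Calr, Cps1, Lgals3, Myof, Slc7a11 and Sox9, while 0 changed direction. A2m (11.05 without and 14.01 ± 1.98 with the library) and Il6 (7.03 and 11.89 ± 2.97) moved most among the raised genes, and both remained called without it. Il6 lost its call without DDC replicate 1 or DDC replicate 2 (adjusted p = 0.162 or 0.186). Among the lowered genes, Cyp2c38 was at -7.89 without and -5.47 ± 0.79 with replicate 3, and Ces1f at -10.28 and -8.35 ± 0.85. Without that library, 12 complement genes were higher and 0 lower of 30, 15 transferases lower and 0 higher of 21, and 20 conjugation genes lower and 1 higher of 38. Fatty acid oxidation and pericentral genes had more members lower without it, as given with those lists. Counts of other lists moved too. Signalling genes had 10 higher and 0 lower of 30, and periportal genes 4 and 2 of 23. The ATF4 list had 1 higher and 0 lower of 25, immediate early genes 2 and 1 of 23, and sex-dimorphic genes 0 and 2 of 25. Kupffer, stellate and dendritic cell markers each had 1 lower.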

How the data were processed

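Hepatocytes were sorted by flow cytometry, and RNA was prepared with Trizol and the TruSeq RNA kit, per the labels' protocols. The authors deposited unnormalised whole-number counts per gene, and the submitters' processing notes name mm10, STAR, HTSeq and DESeq2, with no version, while the strand setting and the handling of shared reads are not stated there. The lowest total over the 13 hepatocyte libraries was 10 counts for a gene. All 13 columns were mapped by title, and 0 columns were unused. EGFP was kept out of library sizes. The 12 immune libraries are not used here, and some genes that the naming rule picks are not reported here.

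From these counts, edgeR 4.0.16 in R 4.3.3 was run with TMM scaling, filterByExpr by group and the quasi-likelihood F test over all 13 libraries in 5 groups, with 8 residual degrees of freedom and no block. Genes with an adjusted p (Benjamini-Hochberg, 14339 genes) below 0.05 were called. The SE is the log2 fold change divided by the square root of F. CPM use TMM-scaled library sizes. Intervals and floors cover counting error only. With 3 against 2 libraries a two-sided exact permutation test of 1 gene cannot go below 0.1, so none is given. Totals were 13625040 to 18428988 counts per library. Data were simulated for IL-6 against DDC over 14339 genes. Of genes changed 2-fold, 24 of 100 were called, and of those changed 4-fold, 84 of 100, with 6 false calls. The changed genes were drawn only from those with higher mean counts, so these shares do not cover genes with few counts. Before these changes all groups had the same mean per gene, and no library was made to stand apart.

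Named by rule were 6 fixed genes (Stat3, Il6, Il6ra, Il6st, Socs3, Sox9), the 15 called genes with the largest change in each direction among those with a mean of at least 20 CPM over the 5 libraries, no overlap and no symbol of a predicted gene or antigen receptor segment, and per list up to 4 members with the smallest adjusted p, or 2 where none passed. Members that went against their list (Klkb1, Mbl2, Mgst2, Ces3b, Fbp1, Cyp3a13) could be named too. Hp, Orm2, Osmr, Cebpb, Cd28, Alb, Srxn1, Gclc, Hmox1, Alas1, Abcb4, Abcb11, Slc10a1, Vim, Spp1, Mki67, Mcm6, Mmp12 and Gnmt, the single cell type markers, the promoter of Socs3 and all genes under the closing observations were chosen after their values were seen. Members and lists were chosen with earlier results of these data known. Sensitivity was checked by DESeq2 1.42.0, median-of-ratios scaling, no low-count filter, a fit of only the compared groups, a fold limit, a replicate block and leaving out each library. Symbols, exon overlaps and gene positions come from GENCODE M21 (GRCm38), and motif matches and windows from RefSeq promoters. Deviations of same-numbered libraries correlated at -0.0154. With 2 DDC libraries this is a single value, which cannot show whether replicate numbers pair the groups.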

Additional observations from a re-analysis of the deposited data

Results flagged for a closer look

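EGFP was read as a signal outside the measured genes. It stood at 486.3 CPM in the library labelled IL-6 replicate 3, against 9.24 and 5.73 CPM in IL-6 replicates 1 and 2. That library also had the highest Il6, at 4.89, 3.21 and 351 CPM over the 3 IL-6 libraries, and the lowest share of albumin counts, 0.557%. DDC libraries, with AAV-TBG-GFP by label, held 1186 and 1229 CPM. The origin of the EGFP counts in that library was not tested.

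The difference between IL-6 and DDC was compared between the groups without Cre and the STAT3KO groups in edgeR (interaction, adjusted p under 0.05). Of 35 leading or fixed genes, 24 passed and also had more than 3 counts in a STAT3KO group and in IL-6 or DDC. Over all genes, 1187 of 14339 passed the test, with no such count limit. Leading genes were picked for a large difference between IL-6 and DDC, which the test uses again, so these shares cannot be compared. Values are the log2 difference without Cre minus that in STAT3KO. Among genes higher in IL-6, it was 13.4 for A2m, 11.5 for Eps8l1, 9.98 for Rtn4rl2, 7.23 for Obp2a, 7.09 for Cyp17a1, 6.87 for Spink1, 6.43 for Gpc3, 4.26 for Socs3, 4.19 for Saa1, 4.1 for Acpp and 2.45 for Sox9. Among genes lower in IL-6, it was -9.46 for Car3, -8.79 for Gsta1, -8.54 for Gsta2, -8.37 for Ces1f, -8.24 for Gstm3, -7.77 for Ces1g, -6.21 for Cyp2a5, -6.08 for Cyp2c55, -5.86 for Gstm1, -5.5 for Slc2a2, -5.17 for Slco1a4, -4.8 for Ddah1 and -3.51 for Cyp2c29. The groups without Cre differed in genotype, AAV and injection besides the treatment. The STAT3KO groups shared genotype and AAV but differed in injection besides the treatment. The part of STAT3 in these values therefore cannot be told apart from those differences. Sox9 was at 5.69 ± 2.42 CPM in IL-6 STAT3KO and 10.3 ± 5.43 CPM in DDC STAT3KO (mean ± SD, n = 3 each).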

How the results depend on the processing

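The counts of 865 higher and 796 lower genes in IL-6 than in DDC stayed within 1.5 times under median-of-ratios scaling (870 and 792), no low-count filter (759 and 763), DESeq2 (1219 and 1077), a fit of the compared groups alone (834 and 858) and an added limit of 1 on the log2 fold change (702 and 626). The same held with the replicate number as a block (838 and 808), although it is not known whether the numbers pair these libraries. Leaving out 1 library gave 246 to 895 higher and 362 to 760 lower genes. They moved by over 1.5 times without IL-6 replicate 2 (518 and 383), DDC replicate 1 (321 and 368) or DDC replicate 2 (246 and 362), and the lower count also without IL-6 replicate 1 (483). The corresponding ranges were 1651 to 3450 genes for IL-6 against the GFP plasmid (3719 in all), 607 to 1220 for DDC against the GFP plasmid (2674 in all) and 602 to 1921 for IL-6 STAT3KO against DDC STAT3KO (1410 in all). Moves over 1.5 times came without either GFP plasmid library (1707 and 1651) in the first, with each of the 4 libraries left out in turn in the second, and without IL-6 STAT3KO replicate 1 (738) or 3 (602) or DDC STAT3KO replicate 1 (887) in the third. With the compared groups alone, DDC against the GFP plasmid gave 4415 genes and the STAT3KO pair 558, and the STAT3KO pair gave 935 with the fold limit. The causes were not tested.

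No named gene called in IL-6 against DDC changed direction under these alternatives. Over the libraries left out, the log2 fold change of uncalled genes crossed 0, for Gnmt within -0.1575 to 0.107, Il6st within -0.23 to 0.2289, Il6ra within -0.3949 to 0.8933, Pnpla3 within -3.836 to 0.1951 and Slc10a1 within -0.09193 to 0.03051. DESeq2 called Spp1 (adjusted p = 0.0424), Mcm6 (0.0150), Pnpla3 (0.0145) and Psmd8 (0.0278), and did not call Trat1 (0.0689), Mgst2 (0.0648) and S100a6 (0.0507). Of genes named in the report, the fit of the compared groups alone lost Il6 (0.0897), Abcb11 (0.0954), Calr (0.0647), Cebpb (0.0731), Cxcl10 (0.0585), Fbp1 (0.0779) and Trf (0.0991), and called Spp1 (0.0266), Alas1 (0.0465), Hspa4l (0.0353) and Mcm6 (0.0467). That fit also gave 9 coagulation genes higher, 4 progenitor genes higher and 7 lower, 7 genes of the YAP list lower and 11 matrix genes lower. DESeq2 gave 10 genes of the endoplasmic reticulum and 6 Reg and antimicrobial genes higher and 9 pericentral genes lower. The replicate block lost the calls of 12 named genes, among them Cldn4, Lgals3, Vim and Slc7a11. Genes with a few counts in a group rest on counting intervals.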

Other observations

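Genes outside the lists, chosen after their values were seen, also separated the groups. Egfr, the epidermal growth factor receptor, had 1489, 1459.7 and 1542 CPM in IL-6 libraries, against 213 and 151 CPM in DDC libraries, and 924 and 974 CPM with the GFP plasmid. It was lower in DDC than with the GFP plasmid (-2.39 ± 0.38, adjusted p = 0.00259), and IL-6 was above DDC in every library (IL-6 over DDC 3.04 ± 0.38, adjusted p = 0.000404). The STAT3KO groups stood in the same order, at 703 ± 259.7 CPM in IL-6 STAT3KO and 175 ± 48.1 CPM in DDC STAT3KO (mean ± SD, n = 3 each). Gucy2c, an intestinal receptor of guanylin peptides, had 59.9, 74.2 and 62.01 CPM in IL-6 libraries, against 1.33 and 2.27 CPM in DDC libraries, and 0.768 and 0.344 CPM with the GFP plasmid (IL-6 over DDC 5.17 ± 0.36, adjusted p = 2.00e-05). Slc13a5, a citrate importer, had 134, 170.2 and 612 CPM in IL-6 libraries, against 11.2 and 16.6 CPM in DDC libraries (4.46 ± 0.66, adjusted p = 0.00122), and Lepr, the leptin receptor, 13.3, 20.8 and 73.2 CPM in IL-6 libraries, against 1.11 and 1.78 CPM in DDC libraries (4.61 ± 0.86, adjusted p = 0.00493). Both were highest in IL-6 replicate 3, and Lepr lost its call without DDC replicate 1 (adjusted p = 0.0645). Sult1e1, an oestrogen sulfotransferase, had 65.8, 61.2 and 68.1 CPM in IL-6 libraries, against 2.81 and 0.579 CPM in DDC libraries (5.29 ± 1.502, adjusted p = 0.0405), and lost its call with any 1 library left out (0.0551 to 0.2604).

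Other genes were lower in IL-6 than in DDC. Igfbp2, an insulin-like growth factor binding protein, had 26.5, 49.7 and 38.9 CPM in IL-6 libraries, against 496 and 511 CPM in DDC libraries, and 501 and 613 CPM with the GFP plasmid. DDC did not pass against the GFP plasmid (-0.15 ± 0.45, adjusted p = 0.8498), and IL-6 lay below both (IL-6 over DDC -3.71 ± 0.43, adjusted p = 0.000291). Pon1, a paraoxonase carried on lipoproteins, had 45.7, 29.8 and 70.6 CPM in IL-6 libraries, against 366 and 330.0 CPM in DDC libraries (-2.84 ± 0.41, adjusted p = 0.00112), and Hsd11b1, which reactivates glucocorticoids, 58.8, 25.2 and 21.4 CPM in IL-6 libraries, against 349 and 188 CPM in DDC libraries (-2.94 ± 0.54, adjusted p = 0.00478). Ahnak, a large scaffold protein at the membrane, had 6.71, 5.61 and 7.17 CPM in IL-6 libraries, against 57.3 and 81.5 CPM in DDC libraries, and 5.63 and 5.37 CPM with the GFP plasmid (IL-6 over DDC -3.42 ± 0.61, adjusted p = 0.00412). Vcam1, an adhesion molecule that endothelial and Kupffer cells also make, had 9.32, 8.63 and 7.86 CPM in IL-6 libraries, against 58.1 and 89.1 CPM in DDC libraries, and 1.47 and 2.48 CPM with the GFP plasmid (-3.10 ± 0.59, adjusted p = 0.00567). The summed Kupffer markers were 288.7 to 394.8 CPM in IL-6 and 752.8 to 933.4 CPM in DDC. Sinusoidal endothelial markers summed to 81.5 to 274.9 CPM in IL-6 and 335.1 to 403.4 CPM in DDC. The part of these cells in Vcam1 was not tested.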
